A study of Bos taurus with 8 samples.

Results

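The transforming growth factor beta (TGF-beta), bone morphogenetic protein (BMP) and activin signalling genes are described here in bovine preadipocyte clones. Members are the genes whose symbols belong to these families, whatever their measured values, and 46 of the 18871 named genes in the table matched. They comprise ligands, receptors, extracellular binding proteins and antagonists, SMAD proteins and the ubiquitin ligases that act on SMADs. All 46 passed the minimum of 20 counts in total and were among the 18339 genes tested. The 46 were sorted into role lists of 67 symbols, and the other 21, among them *BMP7*, *INHBB* and *ACVR1C*, were not analysed here.

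The data came from 8 cultures, 4 labelled as clones of single stromal vascular fraction (SVF) cells from intramuscular fat (IMF1 to IMF4) and 4 from subcutaneous fat (SF1 to SF4). All were taken from adult male Angus-cross steers, and the labels name neither a treatment nor a genetic change that sets the groups apart. The study's methods place RNA extraction in growth medium before adipogenic induction, whereas the design text deposited with the data places induction first, so the differentiation state is given here as uncertain. Clones had been chosen by the study for fast growth, strong lipid accumulation and fibroblast-like shape, and each group is therefore a selected sample of its depot.

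Ligands of this superfamily are secreted as dimers and bring together type I and type II serine/threonine kinase receptors. The type I receptor then phosphorylates receptor-regulated SMADs, broadly SMAD2 and SMAD3 for TGF-beta and activin and SMAD1, SMAD5 and SMAD9 for BMPs, which enter the nucleus with SMAD4. Outside the cell, latent TGF-beta is held in the matrix by binding proteins, and BMPs and activins are blocked by antagonists such as noggin, chordin, gremlin and follistatin. In adipose tissue, TGF-beta and activin are known to restrain adipocyte differentiation of precursors, while BMP2 and BMP4 can promote commitment to the adipocyte lineage.

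Total counts on named genes ran from 19654917 to 29308882 over the IMF clones, and those of the SF clones from 19979899 to 24868233. Levels are given as counts scaled to a common library size (CPM) after TMM normalization for comparison between clones, and as TPM, which also divides by gene length, for comparison between genes. A level of 3 counts, the upper limit that a count of 0 allows, corresponded to between 0.0981 and 0.165 CPM, and this covers counting error only. The members took from 0.325% to 0.363% of the counts of an IMF clone and from 0.468% to 0.654% of those of an SF clone. Pairs of clones within a group differed by more than sampling noise, with a median chi-square per gene from 2.53 to 4.48 times that of counting noise among IMF clones and from 7.13 to 15.2 times among SF clones.

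The labelled cell type was checked against markers. *PDGFRA*, a receptor found on preadipocytes and fibroblasts, had from 181 to 187 CPM in IMF clones and from 111 to 153 CPM in SF clones. Of the 8 fibroblast and preadipocyte markers it belongs to, 2 were past the threshold, *COL1A1* and *THY1* (log2 fold changes -1.28 and -1.30, both lower in IMF), and *PDGFRA* was higher in IMF by less (0.49). The adjusted p of *THY1* in edgeR was up to 0.082 with 1 clone left out. SF4, at 54.7 CPM of *THY1*, was close to the IMF clones (48.0 to 54.1 CPM). The IMF clones also held markers of other cell types. The summed level of 10 myogenic markers was from 923 to 1030 CPM in IMF clones and from 2.2 to 33.4 CPM in SF clones. For 13 endothelial markers it was from 224 to 274 CPM in IMF and between 44.9 and 82.3 CPM in SF, and 11 of the 13 were past the threshold and higher in IMF. The defining endothelial gene *CDH5* had from 50.9 to 57.2 CPM in the IMF clones and from 0.122 to 0.22 CPM in the SF clones, and *KDR* had 0 counts in every SF clone. In such bulk libraries, fewer cells of one type and less RNA per cell cannot be told apart.

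IMF and SF clones were compared to ask how preadipocytes of the 2 depots differ, with edgeR's quasi-likelihood test over all genes. The threshold was an adjusted p under 0.05 together with an absolute log2 fold change of 1 or more. Positive log2 fold changes mean higher in IMF, and SE is the standard error of a log2 fold change. Of the 46 members, 10 (21.7%) were past the threshold, against 8.82% of all genes tested. Higher in IMF were 3 members (6.52%), against 4.78% of all genes, and these were the ligands *BMP4* and *BMP6* and the type I receptor *ACVRL1*. Lower in IMF were 7 members (15.2%), against 4.04% of all genes, and these were *TGFBI*, *LTBP1*, *LTBP2*, *LTBP4*, *NOG*, *CHRD* and *INHBA*. At any fold, 22 members (47.8%) had an adjusted p under 0.05, against 25.8% of all genes, with 7 higher (14.4% of all genes) and 15 lower (11.4% of all genes) in IMF. The 2 groups did not overlap in 23 members, against 32.1% of all genes, and 16 of these 23 were lower in IMF. The median log2 fold change was -0.36 over the members and -0.03 over all genes.

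**Figure D1:**
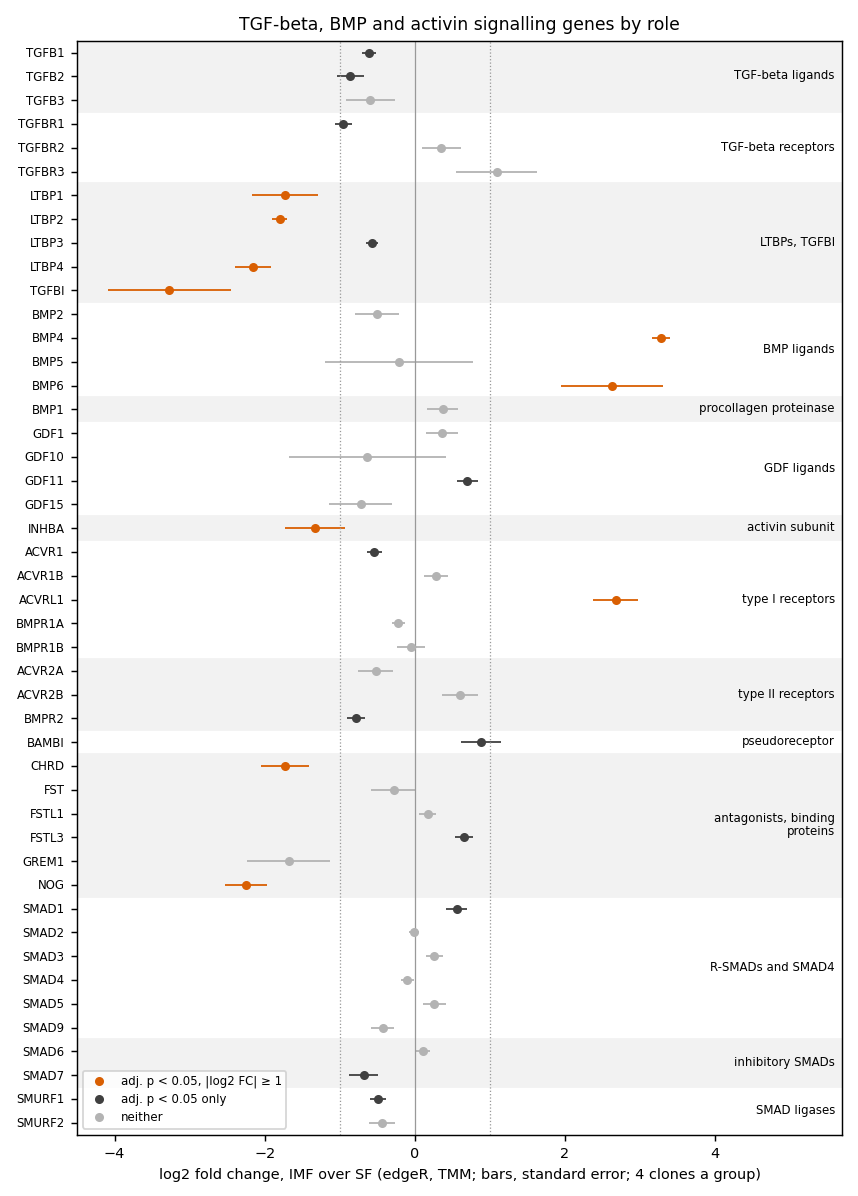
Log2 fold change of IMF over SF for the 46 members, grouped by role, with bars for the standard error (4 clones a group). Orange points are the 10 members past both thresholds, dark points have an adjusted p under 0.05 only, and dotted lines mark a log2 fold change of 1 in either direction. The 3 orange points on the right are *BMP4*, *ACVRL1* and *BMP6*.

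Scaling by the total count alone raised both medians, to 0.12 over all genes and to -0.19 over the members. The split of all genes past the threshold moved from 54.2% to 66.7% higher in IMF. Among the members, *INHBA* then left the called set and *BAMBI* entered it, which gave 4 members higher and 6 lower. When the test asked for a change beyond 1 on the log2 scale, 5 members passed and the share of all called genes higher in IMF was 75.4%.

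For most members, the clones of the SF group were less alike than those of the IMF group. How far the 4 IMF cultures are independent of each other was not tested, and p-values and SEs measure only the spread between these 8 cultures. Among 37 members averaging 100 counts or more in each group, the median coefficient of variation was 6.24% among IMF clones and 23.8% among SF clones. The SF value was the larger in 35 of the 37 (94.6%), against 74.7% of 10948 genes tested with the same mean. A coefficient of variation above 50% was found in SF for 8 of the 37 members (21.6%), against 4.50% of those genes, and in IMF for 0 of the 37, where the largest was 17.1%, against 4.84% of those genes. SF1 had the highest SF level in 21 of the 46 members, against 30.1% of all genes tested, and SF2 had the lowest in 20, against 24.0%.

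The TGF-beta ligands are given first. TGF-beta 1, 2 and 3 are encoded by separate genes and signal through the same receptors. *TGFB1* had 37.8, 38.2, 39.0 and 37.3 CPM in IMF1 to IMF4 and 62.1, 49.1, 60.8 and 61.3 CPM in SF1 to SF4. Every SF clone was above every IMF clone, and the mean level in SF was 1.53 times that in IMF. The log2 fold change of *TGFB1* was -0.61 (SE 0.09, adjusted p = 0.00132, edgeR), under the fold threshold. *TGFB2* had 34.2 ± 3.19 CPM in IMF against 62.2 ± 15.4 in SF (SD, n = 4 each), again with no overlap, and a log2 fold change of -0.86 (SE 0.18, adjusted p = 0.00881, edgeR). Without SF2, which had the lowest SF level at 41.4 CPM, *TGFB2* passed the fold threshold (log2 fold change -1.02). *TGFB3* ranged from 22.2 to 26.3 CPM in IMF and had 40.2, 20.8, 62.4 and 22.9 CPM in SF1 to SF4, so that SF4 lay within the IMF range, SF2 below it and the other SF clones above it (adjusted p = 0.226, edgeR).

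Summed over the 3 ligands, the level per length was from 40.1 to 50.4 TPM in IMF clones and from 55.9 to 89.3 TPM in SF clones. *TGFB1* took from 46.2% to 49.7% of that sum in IMF and from 40.1% to 53.8% in SF. The shares of *TGFB2* and *TGFB3* were narrow in IMF, from 22.9% to 25.1% and from 26.6% to 28.7%. In SF the *TGFB3* share ran from 17.2% in SF4 to 37.1% in SF3.

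Of the 3 TGF-beta receptor genes, 1 (33.3%) had an adjusted p under 0.05, against 25.8% of all genes. *TGFBR1*, the type I receptor kinase, had 46.2, 50.8, 50.9 and 45.1 CPM in the IMF clones and 105, 81.8, 103 and 82.6 CPM in the SF clones. The groups did not overlap, and the log2 fold change was -0.95 (SE 0.11, adjusted p = 0.000469, edgeR), just short of the fold threshold. It reached the threshold without IMF3 (-1.0), without SF2 (-1.01) and without SF4 (-1.0). *TGFBR2*, the type II receptor that binds the ligand first and had an IMF level per length (21.8 ± 2.27 TPM, SD, n = 4) close to that of *TGFBR3* (21.5 TPM), had 65.6, 63.9, 61.7 and 58.1 CPM in IMF against 28.1, 75.5, 40.3 and 51.7 in SF. SF2 was above the IMF clones and the other SF clones were below them (adjusted p = 0.369, edgeR).

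*TGFBR3* encodes betaglycan, a co-receptor that presents TGF-beta 2. It had 83.8, 80.9, 83.8 and 84.9 CPM in the IMF clones, a spread of 1.71 CPM (SD), and 10.1, 84.4, 41.6 and 20.8 CPM in the SF clones. SF2 lay within the IMF range, and the other SF clones were below it by different amounts. The log2 fold change was 1.09 (SE 0.54, adjusted p = 0.18, edgeR), and without SF2 it was 1.78 with an adjusted p of 0.0208.

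Within a clone, the balance of the 3 receptors also differed. *TGFBR1* took from 22.4% to 24.7% of the summed receptor TPM in IMF clones and from 32.0% to 70.2% in SF clones. The ratio of *TGFBR1* to *TGFBR2* per length was from 0.56 to 0.656 in IMF. In SF it was 2.98, 0.86, 2.03 and 1.27, so every SF clone had the higher ratio.

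Genes for latent TGF-beta binding proteins (LTBPs), which tether latent TGF-beta to matrix microfibrils, were lower in IMF. All 4, and the TGF-beta-induced matrix protein *TGFBI*, had non-overlapping groups and an adjusted p under 0.05, and 4 of these 5 genes were past the fold threshold. Over all genes, 32.1% did not overlap, 11.4% were lower at an adjusted p under 0.05, and 4.04% were lower past the threshold. *LTBP2* (chromosome 10, 85788955 to 85899067 in ARS-UCD2.0), the family member that does not bind latent TGF-beta, was the most abundant per length. It had 614, 623, 663 and 673 CPM in the IMF clones and 2230, 2070, 2350 and 2320 CPM in the SF clones. The mean level in SF was 3.49 times that in IMF, and the log2 fold change was -1.80 (SE 0.10, adjusted p = 9.65e-06, edgeR). By TPM, *LTBP2* lay at percentile 95.9 of the genes tested in IMF and 98.6 in SF.

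*LTBP4* (chromosome 18, 49897488 to 49924646), which binds latent TGF-beta and is needed for elastic fibre assembly, had 14.7, 14.9, 18.5 and 17.3 CPM in IMF against 80.8, 82.5, 89.2 and 39.8 in SF. SF4 had under 40 CPM and was still above every IMF clone. edgeR gave a log2 fold change of -2.16 (SE 0.24, adjusted p = 0.000463). *LTBP1* (chromosome 11, 15473629 to 15930112), a major carrier of latent TGF-beta 1, had 10.7, 10.0, 10.4 and 9.47 CPM in IMF against 67.3, 22.3, 13.3 and 31.6 in SF. Its SF levels spread over a range in which SF1 stood highest and SF3 was near the IMF clones. The fitted log2 fold change was -1.73 (SE 0.44, adjusted p = 0.0215, edgeR). Without SF1 it was -1.14. The adjusted p was 0.0506, 0.0551, 0.0564 and 0.0574 when IMF1, IMF2, IMF3 or IMF4 was left out, and 0.0627 with limma-voom.

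*LTBP3*, which binds each of the latent TGF-betas, had 100 ± 6.74 CPM in IMF against 150 ± 6.03 in SF (SD, n = 4 each). Its difference was the smallest of the family (log2 fold change -0.57, SE 0.08, adjusted p = 0.000977, edgeR). Within the LTBP family, the *LTBP3* share of the summed TPM was from 17.9% to 18.8% in IMF and from 8.60% to 8.92% in SF. The *LTBP2* share was from 76.0% to 77.2% in IMF and from 82.9% to 87.3% in SF. The sum over the 4 genes was from 143 to 175 TPM in IMF and from 435 to 535 TPM in SF.

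*TGFBI* (chromosome 7, 47468020 to 47501512) encodes a secreted matrix protein that binds integrins and collagens and was named for its induction by TGF-beta. It had 49.8, 55.2, 55.8 and 49.0 CPM in the IMF clones and 61.7, 277, 1400 and 286 CPM in the SF clones. SF1 lay just above the IMF range, whereas SF3 was far above all other clones. IMF over SF, the log2 fold change was -3.27 (SE 0.82, adjusted p = 0.0204, edgeR), and it was -2.02 without SF3. Leaving out IMF1, IMF2, IMF3 or IMF4 gave adjusted p-values of 0.0541, 0.0533, 0.0567 and 0.0567.

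**Figure D2:**
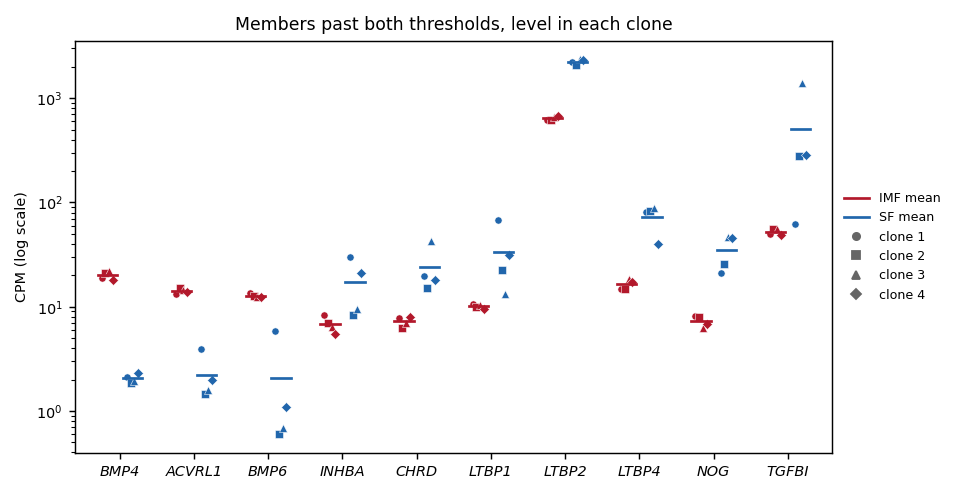
Level in CPM on a log axis of the 10 members past both thresholds in each of the 8 clones, with IMF in red, SF in blue, a symbol for each clone number and a bar at the group mean. The groups do not overlap in any of the 10, and in *TGFBI* the SF clones spread from 61.7 CPM in SF1 to 1400 CPM in SF3.

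Of the 4 BMP ligand genes, 2 were past the threshold, against 8.82% of all genes, and both were higher in IMF, against 4.78%. *BMP4* (chromosome 10, 66518533 to 66525639), a ligand that acts through BMPR1A, BMPR1B and BMPR2, was the most abundant of the BMP ligand genes in IMF per length (11.1 ± 1.51 TPM, SD, n = 4). It had 18.7, 21.2, 21.9 and 18.0 CPM in the IMF clones and 2.10, 1.85, 1.95 and 2.31 CPM in the SF clones. Both groups were tight, and the mean level in IMF was 9.70 times that in SF. The log2 fold change was 3.28 (SE 0.12, adjusted p = 2.89e-06, edgeR).

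*BMP6* (chromosome 23, 47502338 to 47663392), a ligand best known for control of hepcidin and for its production by endothelial cells, had 13.5, 12.8, 12.3 and 12.3 CPM in IMF against 5.85, 0.601, 0.69 and 1.10 in SF. SF1 was several times above the other SF clones. edgeR gave a log2 fold change of 2.63 (SE 0.68, adjusted p = 0.0229), and 4.00 without SF1. All 13 endothelial markers summed to 82.3 CPM in SF1 and to 50.9, 44.9 and 64.3 CPM in SF2 to SF4. The 11 of them past the threshold, a subset chosen by that call, summed to 5.24 CPM in SF1 and to 5.06, 5.48 and 4.13 CPM in SF2 to SF4. The part of endothelial cells in the *BMP6* level was not tested. The adjusted p was 0.0516 without IMF2, 0.0561 without IMF3, 0.0512 without SF3 and 0.0581 without SF4.

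*BMP2*, which can also drive preadipocyte commitment, had 3.68 ± 0.345 CPM in IMF against 5.19 ± 2.05 in SF (SD, n = 4 each), and the groups overlapped (adjusted p = 0.252, edgeR). *BMP5* was scarce, with from 0 to 1.44 CPM over the 8 clones. All 8 of its counts were even numbers, as they were for 1578 of the 18339 genes tested. In IMF clones *BMP4* took from 49.3% to 55.1% of the summed BMP ligand TPM and *BMP2* from 10.4% to 13.4%. In SF clones *BMP2* took from 41.0% to 75.3% and *BMP4* from 13% to 30.9%. The sum was from 19.0 to 23.7 TPM in IMF and from 3.64 to 8.74 TPM in SF.

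**Figure D3:**
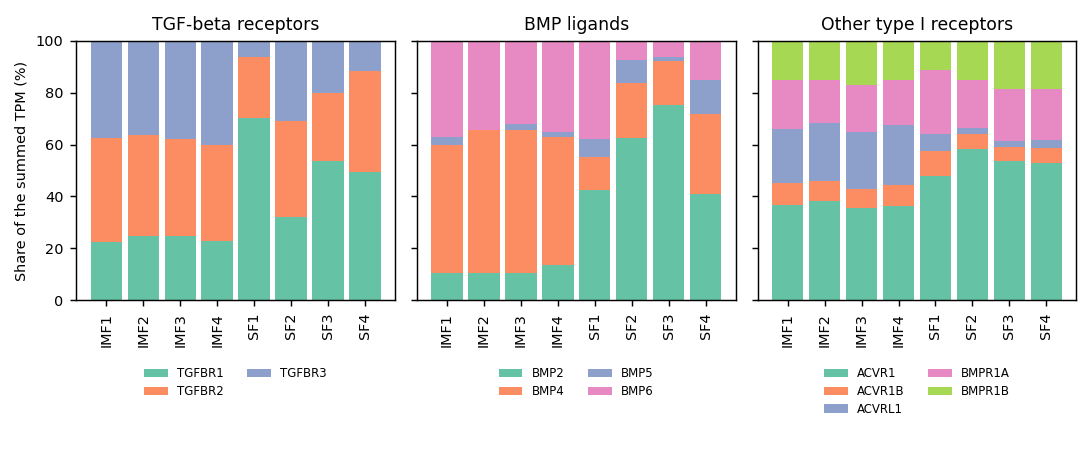
Share in percent of the summed TPM taken by each gene in each of the 8 clones, for the TGF-beta receptors (left), the BMP ligands (middle) and the other type I receptors (right). The IMF bars are alike within each panel, *BMP4* takes at least 49.3% of the BMP ligand sum in IMF and at most 30.9% in SF, and *ACVRL1* takes at least 20.8% of the type I receptor sum in IMF and at most 6.54% in SF.

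*BMP1* is not a ligand but a metalloproteinase that trims procollagens and cleaves chordin and latent TGF-beta complexes. It had 175, 186, 182 and 177 CPM in IMF against 210, 114, 97.9 and 137 in SF. SF1 was above all IMF clones and the other SF clones were below them (log2 fold change 0.37, SE 0.21, adjusted p = 0.254, edgeR).

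Of the 4 GDF ligand genes, 1 had an adjusted p under 0.05, against 25.8% of all genes, and 0 were past the threshold, against 8.82%, with edgeR and also with DESeq2 (1 had an unadjusted p under 0.05 in edgeR). *GDF11*, a close relative of myostatin, had 14.8 ± 1.42 CPM in IMF against 9.11 ± 1.61 in SF with no overlap (SD, n = 4 each; log2 fold change 0.70, SE 0.14, adjusted p = 0.00738, edgeR). *GDF15*, a cytokine of the cellular stress response, was the most abundant of the 4 per length, with 15.3 ± 1.43 TPM in IMF and 24.3 ± 12.5 TPM in SF. It had 8.11, 9.81, 8.21 and 7.85 CPM in IMF against 21.6, 3.85, 13.3 and 17.4 in SF, where SF2 was below and the others above the IMF clones. Its log2 fold change of -0.72 (adjusted p = 0.255, edgeR) became -1.03 without SF2 (adjusted p = 0.00553). *GDF1* shares its locus with *CERS1*, so its reads may be split with that gene, and it had 4.96 ± 0.532 CPM in IMF against 3.86 ± 0.965 in SF (adjusted p = 0.237). *GDF10* had from 0 to 1.05 CPM.

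*INHBA* (chromosome 4, 79279914 to 79304488) encodes the beta A subunit that forms activin A, an inhibitor of adipogenic differentiation in human precursors. It had 8.25, 7.03, 6.44 and 5.47 CPM in the IMF clones and 29.8, 8.41, 9.46 and 21.1 CPM in the SF clones. SF1 and SF4 were well above the IMF clones, while SF2 and SF3 were only slightly above them. The fitted log2 fold change was -1.33 (SE 0.40, adjusted p = 0.0405, edgeR). The call held without SF2 or SF3 but not without any other clone. Left out one at a time, IMF1, IMF2, IMF3 and IMF4 gave adjusted p-values of 0.0643, 0.0834, 0.0939 and 0.10, SF1 gave 0.075 with a log2 fold change of -0.93, and SF4 gave 0.0914. With limma-voom the adjusted p was 0.109.

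Of the other type I receptor genes, *ACVRL1* (chromosome 5, 27943345 to 27957129) alone was past the threshold. It encodes ALK1, a receptor for BMP9 and BMP10 that is known mainly from endothelial cells. It had 13.3, 15.2, 14.6 and 13.8 CPM in the IMF clones and 3.90, 1.45, 1.58 and 1.98 CPM in the SF clones. SF1 was the highest of the SF clones, and all of them were well under the IMF clones. IMF over SF, the log2 fold change was 2.68 (SE 0.30, adjusted p = 0.000477, edgeR). *ACVR1B*, the activin receptor ALK4, is separated from *ACVRL1* by 27.8 kb and had 8.99 ± 0.384 CPM in IMF against 7.42 ± 1.76 in SF (log2 fold change 0.28, adjusted p = 0.251, edgeR).

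*ACVR1*, which encodes the BMP and activin receptor ALK2, was the most abundant of these type I receptor genes per length in both groups, with 14.2 ± 1.27 TPM in IMF and 20.4 ± 3.92 TPM in SF. It had 26.0, 28.6, 25.9 and 24.2 CPM in IMF against 31.5, 41.7, 41.7 and 37.4 in SF, without overlap (log2 fold change -0.54, SE 0.10, adjusted p = 0.00656, edgeR). In IMF the order by mean TPM was *ACVR1* (14.2), *ACVRL1* (8.46), *BMPR1A* (6.87), *BMPR1B* (6.04) and *ACVR1B* (3.01). In SF it was *ACVR1* (20.4), *BMPR1A* (7.85), *BMPR1B* (6.14), *ACVR1B* (2.45) and *ACVRL1* (1.29). The levels of *BMPR1A* and *BMPR1B*, neighbours in both orders, were within 1 SD of each other in IMF (0.97 and 0.844 TPM) and in SF within the SD of *BMPR1B* (1.72 TPM). The summed type I levels overlapped, from 33.7 to 42.4 TPM in IMF and from 33.4 to 43.3 TPM in SF.

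*BMPR1A* and *BMPR1B*, the principal receptors for BMP2 and BMP4, had log2 fold changes of -0.22 (adjusted p = 0.115, edgeR) and -0.05 (adjusted p = 0.888, edgeR). The type II receptor *BMPR2*, the most abundant type II gene per length, had 89.2, 94.3, 95.4 and 89.9 CPM in IMF against 127, 157, 161 and 188 in SF. All SF clones were above all IMF clones, and the log2 fold change was -0.78 (SE 0.12, adjusted p = 0.00186, edgeR). The activin type II receptor genes overlapped between groups, *ACVR2A* at 13 ± 1.34 and 18.7 ± 6.51 CPM and *ACVR2B* at 5.00 ± 0.367 and 3.30 ± 1.20 CPM in IMF and SF (SD, n = 4 each), with adjusted p-values of 0.128 and 0.108. *BAMBI*, a decoy that resembles a type I receptor without a kinase domain, had 3.69, 4.28, 3.13 and 3.47 CPM in IMF against 2.67, 1.30, 2.43 and 1.49 in SF. Its log2 fold change of 0.88 (SE 0.27, adjusted p = 0.0445, edgeR) was 1.06 without SF1, and the adjusted p was over 0.05 when any 1 of the other 7 clones was left out.

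Among the 6 secreted antagonists and binding proteins, 2 were past the threshold and lower in IMF, *NOG* and *CHRD*, against 4.04% of all genes. *NOG* (chromosome 19, 7388440 to 7390428) encodes noggin, which binds BMP2 and BMP4 and keeps them from their receptors. It had 8.11, 8.01, 6.30 and 6.90 CPM in the IMF clones and 21.1, 25.6, 46.9 and 46.0 CPM in the SF clones. SF3 and SF4 were the highest, and the mean level in SF was 4.76 times that in IMF. The log2 fold change was -2.25 (SE 0.28, adjusted p = 0.000727, edgeR).

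*CHRD* (chromosome 1, 82803348 to 82813199) encodes chordin, another BMP antagonist and a substrate of BMP1. It had 7.87, 6.18, 6.98 and 7.95 CPM in IMF against 19.7, 15.2, 42.9 and 17.9 in SF, with SF3 the highest. edgeR gave a log2 fold change of -1.73 (SE 0.32, adjusted p = 0.00567), and -1.31 without SF3. *GREM1* encodes gremlin 1, an antagonist of BMP2 and BMP4, and had 22.5, 21.4, 21.9 and 20.9 CPM in IMF against 118, 32.4, 108 and 17.9 in SF. SF4 was below the IMF clones while SF1 and SF3 were far above them (log2 fold change -1.68, SE 0.55, adjusted p = 0.0543, edgeR). DESeq2 gave an adjusted p of 0.00767 for *GREM1*, and edgeR gave 0.0401 without SF2 and 0.0108 without SF4.

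Within each clone, the ratio of *NOG* to *BMP4* per length was 0.652, 0.567, 0.432 and 0.576 in the IMF clones and 15.0, 20.7, 36.1 and 29.8 in the SF clones. The ratio of *CHRD* to *BMP4* was from 0.253 to 0.383 in IMF and from 6.69 to 19.1 in SF. *BMP4* transcripts thus outnumbered those of either antagonist in all IMF clones, and the reverse held in all SF clones. These ratios combine genes already tested above and carry no test of their own.

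**Figure D4:**
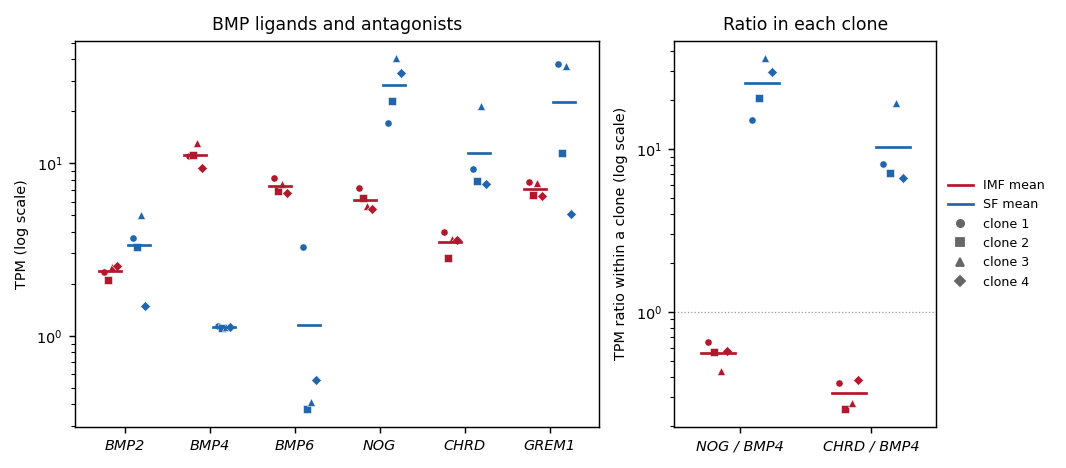
Left, level per length (TPM, log axis) of 3 BMP ligand genes and 3 antagonist genes in each clone; right, the ratio of *NOG* and of *CHRD* to *BMP4* within each clone (log axis, dotted line at 1). Red marks IMF, blue marks SF, symbols mark the clone number and bars the group mean. The *NOG* to *BMP4* ratio is at most 0.652 in IMF and at least 15.0 in SF.

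The remaining binding proteins were abundant in both groups. *FSTL1*, a secreted glycoprotein related to follistatin, had 804, 835, 809 and 766 CPM in IMF against 649, 848, 695 and 670 in SF, and SF2 was above every IMF clone (log2 fold change 0.17, adjusted p = 0.301, edgeR). *FST*, follistatin itself, which neutralises activins and myostatin, had 182 ± 8.93 CPM in IMF and 112 to 355 CPM in SF (adjusted p = 0.531, edgeR). By TPM, *FST* was at percentile 97.4 of the genes tested in IMF and at 97.6 in SF. *FSTL3*, a related activin antagonist, had 114 ± 4.24 CPM in IMF against 72.6 ± 12.5 in SF (SD, n = 4 each) with no overlap (log2 fold change 0.65, SE 0.12, adjusted p = 0.0058, edgeR). *FST* exceeded *INHBA* per length in every clone, from 32.2 to 51.9 times in IMF and from 12.2 to 30.7 times in SF.

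The 8 SMAD genes had log2 fold changes between -0.68 and 0.56. None of the 8 was past the threshold with edgeR or DESeq2 (0 in each, against 8.82% of all genes in edgeR). Of the 8, 4 had an unadjusted p under 0.05 in edgeR, against 37.9% of all genes, and 2 an adjusted p under 0.05, against 25.8%. *SMAD5*, a BMP-type SMAD, was the most abundant per length of the receptor-regulated and common SMAD genes in IMF (18.0 ± 1.27 TPM). In SF, *SMAD5* (14.8 ± 3.47 TPM) and *SMAD4* (14.4 ± 2.02 TPM) were within 1 SD of each other. *SMAD5* had 66.9, 76.2, 76.3 and 77.2 CPM in IMF against 47.1, 56.1, 77.5 and 66.3 in SF, and the groups overlapped (adjusted p = 0.227, edgeR). *SMAD1*, also of the BMP branch, had 28.3 ± 2.11 CPM in IMF against 19.1 ± 3.8 in SF with no overlap (SD, n = 4 each; log2 fold change 0.56, SE 0.14, adjusted p = 0.0212, edgeR, and up to 0.0679 with 1 clone left out). *SMAD9*, the third BMP-type SMAD, was lower in every IMF clone, at 28.9 ± 1.66 against 38.9 ± 8.59 CPM (log2 fold change -0.43, adjusted p = 0.0633, edgeR). *SMAD2* had 45.7 ± 2.25 CPM in IMF against 46.2 ± 2.22 in SF, and *SMAD4*, the common partner, 71.3 ± 4.58 and 76.6 ± 7.29 CPM. *SMAD3* had a log2 fold change of 0.26 (adjusted p = 0.111, edgeR).

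The inhibitory SMADs are induced by the pathway and act back on its receptors. *SMAD6*, which mainly limits BMP signals and had the higher level per length, had 74.4, 81.8, 81.6 and 82.1 CPM in IMF against 85.5, 69.9, 74.1 and 67.7 in SF (log2 fold change 0.11, adjusted p = 0.42, edgeR). *SMAD7*, which limits TGF-beta signals as well, had 17.8, 22.2, 18.6 and 17.7 CPM in IMF against 38.5, 22.4, 36.9 and 24.3 in SF. SF2 was only just above IMF2, and the log2 fold change was -0.68 (SE 0.19, adjusted p = 0.0316, edgeR, and up to 0.0798 with 1 clone left out). Within a clone, *SMAD7* took from 23.3% to 27.6% of the summed inhibitory SMAD TPM in IMF and from 31.0% to 41.2% in SF. Of the ubiquitin ligases that mark SMADs and receptors for degradation, *SMURF1* had 20.7 ± 0.53 CPM in IMF against 29.1 ± 4.61 in SF (log2 fold change -0.49, SE 0.11, adjusted p = 0.0136, edgeR). *SMURF2*, the more abundant per length, had 117, 127, 119 and 116 CPM in IMF against 158, 116, 158 and 218 in SF, where SF2 lay at the bottom of the IMF range (adjusted p = 0.0911, edgeR).

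Pairs of members lie within 1 Mb of each other at 6 places in the genome. Their log2 fold changes were alike in some pairs and unlike in others. *TGFBI* (-3.27) lies 59.5 kb from *SMAD5* (0.26), *ACVR1B* (0.28) 27.8 kb from *ACVRL1* (2.68), and *LTBP4* (-2.16) 549 kb from *TGFB1* (-0.61). In RefSeq, 7 members overlap another protein-coding gene, among them *TGFB1* and *LTBP3*, and as the sources disagree on whether the libraries kept strand, reads there may include those of the neighbour.

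Other genes of the pathway that the symbol rule did not hold were taken from lists of 81 genes, 65 of which were tested. Of these 65, 9 (13.8%) were past the threshold, against 8.82% of all genes, with 3 higher (4.62%, against 4.78%) and 6 lower (9.23%, against 4.04%) in IMF. At any fold, 26 (40.0%) had an adjusted p under 0.05, against 25.8% of all genes. Among 10 genes known to be induced by BMP signals, one of them the member *SMAD6*, 2 were higher and 1 lower in IMF past the threshold, against 4.78% and 4.04% of all genes. *UNC5B*, a netrin receptor, had from 16.2 to 19.5 CPM in IMF and between 1.49 and 4.62 CPM in SF (log2 fold change 2.75, SE 0.34, adjusted p = 0.000802, edgeR). *HEY1*, a repressor also induced by Notch, had 11.5 ± 0.843 CPM in IMF against 4.46 ± 1.41 in SF (SD, n = 4 each; log2 fold change 1.37, adjusted p = 0.00349, edgeR). *MSX2*, a homeobox gene, was lower in IMF, with from 3.65 to 4.76 CPM against 13.7, 49.3, 41.9 and 8.87 CPM in SF1 to SF4 (log2 fold change -2.77, adjusted p = 0.00656, edgeR, and 0.0522 with limma-voom). The *ID* genes are classic BMP-induced genes. *ID1* had from 156 to 178 CPM in IMF against 59.2, 60.8, 239 and 41.0 in SF (log2 fold change 0.75, adjusted p = 0.329, edgeR), and without SF3 the log2 fold change was 1.62 with an adjusted p of 0.000504. *ID2* and *ID3* were lower in IMF, short of the fold threshold (log2 fold changes -0.88 and -0.44, adjusted p = 0.000907 and 0.0257, edgeR, the latter up to 0.0644 with 1 clone left out). *ID4* overlapped between the groups (log2 fold change 0.15, adjusted p = 0.788, edgeR).

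Of 13 genes tested from the list induced by TGF-beta, 0 were higher and 4 lower in IMF past the threshold, against 4.78% higher and 4.04% lower over all genes, the member *TGFBI* being one of the 4, and DESeq2 also called 4. At an adjusted p under 0.05 and any fold, 2 were higher and 6 lower in IMF, against 14.4% and 11.4% of all genes. *COL1A1*, the alpha 1 chain of type I collagen, had 12400 ± 392 CPM in IMF against 30100 ± 1070 in SF (SD, n = 4 each; log2 fold change -1.28, SE 0.13, adjusted p = 0.000308, edgeR). *TAGLN* and *ACTA2* encode smooth muscle cytoskeletal proteins and had log2 fold changes of -1.09 (adjusted p = 0.0152, edgeR) and -1.68 (adjusted p = 0.0333, edgeR). Without SF1, that of *TAGLN* was -0.81 and the adjusted p of *ACTA2* was 0.0563. The adjusted p of *ACTA2* was also 0.0722 without IMF1, 0.0725 without IMF2, 0.0814 without IMF3, 0.0813 without IMF4 and 0.0718 without SF4. SF1 and SF4, the highest SF clones for both genes, also had the highest sums of the pericyte and smooth muscle list, 11000 and 7200 CPM, a list that holds both genes. *CCN2*, which encodes a matricellular protein, overlapped between the groups, with 0.131 to 4.56 CPM in IMF and 2.57 to 14.9 CPM in SF (adjusted p = 0.159, edgeR).

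Among co-receptors and ligand traps, 2 of 17 genes (11.8%, against 8.82% of all genes) were past the threshold, both lower in IMF. *CRIM1*, a membrane protein that binds BMPs, had from 279 to 286 CPM in IMF against 1250, 527, 518 and 691 in SF (log2 fold change -1.40, SE 0.27, adjusted p = 0.00692, edgeR). *ASPN*, a matrix proteoglycan that binds TGF-beta, had from 7.14 to 8.50 CPM in IMF against 7.29, 300, 210 and 171 in SF, so that SF1 lay within the IMF range (log2 fold change -4.5, SE 0.90, adjusted p = 0.00746, edgeR, and 0.0904 with limma-voom). Endoglin (*ENG*), the co-receptor of ALK1, had 324 ± 16.6 CPM in IMF against 324 ± 82.8 in SF. Of the latent TGF-beta activators and carriers, 1 of 10 (against 8.82% of all genes) passed, *ITGB8*, an integrin subunit that activates latent TGF-beta, with from 11.6 to 12.8 CPM in IMF and between 2.31 and 5.32 CPM in SF (log2 fold change 1.59, SE 0.22, adjusted p = 0.00143, edgeR). None of 18 SMAD cofactors and regulators was past the threshold with edgeR or with DESeq2 (0 in each, against 8.82% of all genes in edgeR). Of the 18, 7 (38.9%) had an unadjusted p under 0.05 in edgeR, against 37.9% of all genes, and 4 (22.2%) an adjusted p under 0.05, against 25.8%. Of the 2 other ligand and receptor genes tested, *GDNF* and *AMHR2*, 0 passed (0 also at an unadjusted p under 0.05 in edgeR, and 0 with DESeq2).

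The members higher in IMF are set here beside markers of other cells. *BMP4*, *BMP6* and *ACVRL1* were higher in the 4 IMF clones, as were the summed endothelial and myogenic markers. Past the threshold, 4.78% of all genes were likewise higher in IMF. The endothelial sum was 82.3, 50.9, 44.9 and 64.3 CPM in SF1 to SF4, but *FLT1* and *CLDN5*, the 2 markers not past the threshold, made up 77.1, 45.8, 39.4 and 60.2 CPM of it. The other 11 were set apart by their call as higher in IMF, which fixed the direction of their contrast. They summed to between 184 and 207 CPM in IMF and between 4.13 and 5.48 CPM in SF. Among the SF clones, *BMP6*, *ACVRL1*, *HEY1* and *UNC5B* were highest in SF1, as were 30.1% of all genes tested. *BMP4* was highest in SF4 (2.31 CPM, against 2.10 CPM in SF1). Of the endothelial list, no SF clone had over 3 counts for 5 of 13 genes, nor for 5 of 10 genes of the myogenic list. Of 8 listed pericyte and smooth muscle markers, 6 were among the named genes. They summed to between 2210 and 2470 CPM in IMF and to 11000, 4010, 3240 and 7200 CPM in SF1 to SF4. Of these 6 markers, 4 were lower in IMF past the threshold (*ACTA2*, *TAGLN*, *CNN1* and *CSPG4*) and 2 higher (*MCAM*, log2 fold change 4.26, and *MYH11*, 1.59). With 1 clone left out, the adjusted p in edgeR was up to 0.052 for *MCAM* and 0.0766 for *MYH11*. *MCAM* had 5.34 CPM in SF1 and from 0 to 0.15 CPM in SF2 to SF4. The leukocyte sum, over 5 of 8 listed genes, ran from 19.8 to 33.2 CPM in IMF and between 37.6 and 66.4 CPM in SF. *CD14*, the 1 of these 5 genes past the threshold, was higher in IMF (log2 fold change 1.48). The adipocyte sum, over 3 of 6 listed genes, ran from 11.5 to 14.2 CPM in IMF and between 3.5 and 5.01 CPM in SF. *FABP4*, the 1 of these 3 genes past the threshold, had 7.89 to 11.5 CPM in IMF and 0 to 0.386 CPM in SF. *PLIN1* had 2.69 to 3.04 CPM in IMF and 3.42 to 3.9 CPM in SF, and *CIDEC* 0 to 1.38 and 0 to 1.21 CPM. The fibroblast and preadipocyte sum was from 31900 to 33400 CPM in IMF and between 53300 and 60900 CPM in SF. Most of this difference lay in *COL1A1* and *COL1A2*, with means of 12400 and 10400 CPM in IMF against 30100 and 18200 CPM in SF. Over the 8 genes of the list, the median log2 fold change was -0.01, and 4 were positive. The part of these cell types in the differences between IMF and SF members was not tested.

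**Figure D5:**
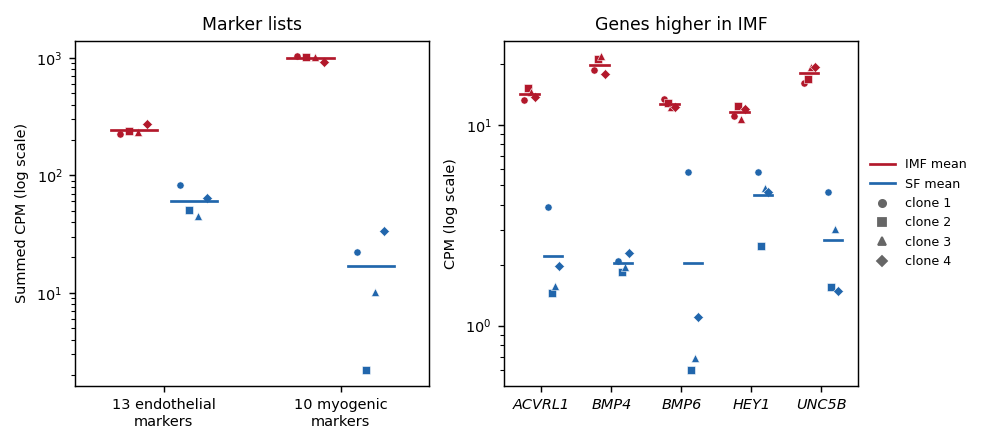
Left, summed CPM of the endothelial and myogenic marker lists in each clone; right, CPM of 3 members and 2 BMP-induced genes that were higher in IMF (log axes; red, IMF; blue, SF; symbols, clone number; bars, group mean). The endothelial sum is from 224 to 274 CPM in IMF and between 44.9 and 82.3 CPM in SF, and most of the SF sum, 77.1 of 82.3 CPM in SF1, is *FLT1* and *CLDN5*, which were not past the threshold.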

How the data were processed

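RNA-seq had been done on 4 IMF and 4 SF clones. The authors deposited raw counts per gene and clone, made with featureCounts 2.0.2 after trimming with Trimmomatic 0.39. The paper names HISAT2 and ARS-UCD2.0 for alignment, and the submitters' processing notes name STAR 2.7.11a. The paper describes TPM, but the columns are whole numbers with unequal totals. TPM was computed here from the counts and the gene length in bases, which the authors deposited in the same table. Their group means and DESeq2 columns (fold changes, p-values, calls) were not used. A row without a gene name, from 0.0148% to 0.0209% of the counts, was left out, and 532 of 18871 genes were under the minimum of 20 counts.

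The test was that of edgeR 4.0.16 under R 4.3.3 (TMM, two-sided quasi-likelihood test, Benjamini-Hochberg over 18339 genes with at least 20 counts in total, prior count 0.125). CPM used TMM library sizes. Standard errors came from the same fit. TMM moved library sizes by between -13.7% and 9.45%. Alternatives were DESeq2 1.42.0, limma-voom (limma 3.58.1), RLE, upper-quartile and total-count scaling, no filter, at least 10 counts in 4 clones, a test for changes beyond 1 on the log2 scale, robust dispersion, a prior count of 2, the clone number as a block, and each clone left out in turn. In a simulation over 18339 genes with 200 changed by a log2 fold change of 2, edgeR recovered 168 (84.0%) and made 3 false calls. The simulation gave both groups the same spread for each gene, unlike these data. Its figures therefore do not measure how the test performs on these clones. Python 3.11.15 made tables and figures.

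Full values were given for members past the threshold and for the most abundant member of each role by TPM, with group values or ranges for the rest, and up to 5 called genes per other pathway list. The *ID* genes, *CCN2*, *ENG*, *THY1*, *MCAM*, *MYH11*, *CD14*, *FABP4*, *PLIN1*, *GDNF* and *AMHR2* were chosen after their values were seen. The symbol rule used no measured value, but it and the lists were chosen with earlier results of these data known. The sources differ on the number of steers, and which clones share an animal across depots was not found. The study's methods draw each clone of a group from an SVF sample of its depot, and independence beyond that was not tested, so p-values measure the spread between these clones. Symbols and coordinates came from RefSeq for ARS-UCD2.0, in which all 46 members were found.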

Additional observations from a re-analysis of the deposited data

Results flagged for a closer look

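Each member was examined for a clone that stood apart from the other 3 of its group, with Dixon's ratio of the gap to the range and its 95% critical value. Of 92 groups of 4 clones, 9 exceeded it, where chance would give about 4.6 of the 92. Of the 9, 6 were in SF. In the SF group, SF1 stood high for *ACVR1B* (10.1 CPM against 6.45 to 6.66, ratio 0.943) and *BMP6* (5.85 against 0.601 to 1.10, ratio 0.905). SF3 stood high for *CHRD* (42.9 CPM against 15.2 to 19.7, ratio 0.838) and *TGFBI* (1400 against 61.7 to 286, ratio 0.832). SF4 stood low for *LTBP4* (39.8 CPM against 80.8 to 89.2, ratio 0.83), and SF2 for *TGFB1* (49.1 against 60.8 to 62.1, ratio 0.899). In the IMF group, IMF1 stood low for *SMAD5* (66.9 CPM against 76.2 to 77.2, ratio 0.90), *SMAD6* (74.4 against 81.6 to 82.1, ratio 0.93) and *SMAD9* (26.4 against 29.6 to 29.9, ratio 0.907).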

How the results depend on the processing

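Of 874 member values over 19 alternatives, 824 kept direction and call, 28 lost the call, 11 gained it and 11 changed sign. *ACVRL1*, *BMP4*, *LTBP2*, *LTBP4* and *NOG* kept their call in every alternative. Testing for changes beyond 1 on the log2 scale left 5 members (3 lower), 631 genes in all and 2 other pathway genes. With 1 clone left out, from 6 to 15 members passed (from 4 to 11 lower), the lowest without IMF2 and the highest without SF2. Signs changed with total counts alone for *BMPR1B* (0.10), *SMAD2* (0.14) and *SMAD4* (0.04), with limma-voom for *GDF10* (0.21), and with 1 clone left out for *BMP5* (from -0.60 to 0.20), *BMPR1B* (from -0.21 to 0.06), *FST* (from -0.50 to 0.04) and *SMAD2* (from -0.07 to 0.02). The cause was not tested. Deviations of same-numbered IMF and SF clones had correlations from -0.009 to 0.139 (mean 0.055, against -0.018 for other pairs). Of 8 clones, 4 correlated best with their own number. These values do not settle whether the numbers mark pairs, and the main fit did not use them as such. With the replicate block, 8 members passed, without *INHBA* and *TGFBI*. For the scarce members *BMP5* and *GDF10*, each with 0 counts in 1 clone, no difference was detectable at this depth.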
